A study of Mus musculus with 4 samples.

Results

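Immediate-early genes in the mouse brain after temporary middle cerebral artery occlusion (tMCAO) were followed across cell classes and days. The 10 genes, Fos, Fosb, Jun, Junb, Jund, Egr1, Atf3, Ier2, Nr4a1 and Dusp1, were found by their symbols in the gene table of the count matrices, where each symbol had 1 entry among 31053 features in each of the 4 libraries. The study made 1 single-cell library, on the 10x Genomics platform, for each of 4 groups of male C57/BL6 mice, 8 weeks old: sham surgery, and 1, 3 and 7 days after tMCAO. In this model a filament blocks the middle cerebral artery for a limited time and blood flow then returns, and the hemisphere on the operated side was taken in every group, sham included. The sources used here differ on the day of the sham library, and how many mice went into a library is not given in the sources used here. With 1 library per group no difference between groups has a replicate check, so no p-value is given, and every interval below is a 95% interval that covers counting error only.

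Immediate-early genes are transcribed within minutes of a stimulus from promoters that are already accessible, without new protein synthesis. Most of them encode transcription factors, and the Fos and Jun proteins pair to form AP-1, which binds many genes of the later response. Growth factors, calcium influx and inflammatory signals induce them in the living brain, and so do the warm enzymatic digestion and mechanical stress used to free cells from tissue. The cells of this series were digested with papain at 37 °C for 30 minutes, in every group. Induction by this step and induction in the animal cannot be told apart in these data.

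Promoters of 8 of the 10 genes are in the RefSeq table used here (GRCm38.p6), each running from 250 bases before to 50 bases after the annotated start. Egr1 and Ier2 have no entry. The 4 promoters printed here belong to Fos and Fosb, the FOS subunits of AP-1, to Dusp1, a feedback phosphatase, and to Nr4a1. Over all cells kept for the comparisons below, the level of Dusp1 varied most closely with the others and the pattern of Nr4a1 differed from the rest. Sequences run 5′ to 3′, and the capitals mark the cAMP response element (CRE) TGACGTCA and its half-site CGTCA, searched on both strands; every CRE holds 2 overlapping half-sites.
Fos, chr12:85473640-85473939, + strand: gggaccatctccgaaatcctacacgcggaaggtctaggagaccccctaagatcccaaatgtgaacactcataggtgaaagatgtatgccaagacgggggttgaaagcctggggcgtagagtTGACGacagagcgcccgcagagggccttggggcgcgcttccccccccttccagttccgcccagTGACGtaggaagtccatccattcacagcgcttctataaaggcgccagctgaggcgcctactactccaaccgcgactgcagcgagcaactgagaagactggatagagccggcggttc
Fosb, chr7:19309996-19310295, - strand: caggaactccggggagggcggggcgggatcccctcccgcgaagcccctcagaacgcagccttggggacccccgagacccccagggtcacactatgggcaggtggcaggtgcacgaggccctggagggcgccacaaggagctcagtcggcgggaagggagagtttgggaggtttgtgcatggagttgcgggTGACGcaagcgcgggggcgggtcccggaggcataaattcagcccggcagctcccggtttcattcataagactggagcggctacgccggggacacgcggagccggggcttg
Nr4a1, chr15:101266596-101266895, + strand: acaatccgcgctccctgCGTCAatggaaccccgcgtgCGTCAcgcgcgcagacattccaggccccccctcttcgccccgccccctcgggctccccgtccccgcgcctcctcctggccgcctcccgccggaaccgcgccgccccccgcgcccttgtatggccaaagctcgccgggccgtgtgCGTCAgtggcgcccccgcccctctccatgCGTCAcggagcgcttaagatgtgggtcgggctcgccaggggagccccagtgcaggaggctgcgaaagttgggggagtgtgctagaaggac
Dusp1, chr17:26508423-26508722, - strand: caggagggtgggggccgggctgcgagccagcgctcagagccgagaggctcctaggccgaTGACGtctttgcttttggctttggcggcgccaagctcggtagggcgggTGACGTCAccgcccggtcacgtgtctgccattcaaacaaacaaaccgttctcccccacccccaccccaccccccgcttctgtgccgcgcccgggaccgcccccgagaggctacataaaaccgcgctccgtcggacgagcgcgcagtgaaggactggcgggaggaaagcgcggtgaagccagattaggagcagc
A half-site was present in 6 of the 8 promoters (Fos, Fosb, Junb, Atf3, Nr4a1 and Dusp1), against 20.8% of all 32851 promoters of the same length in the table. Nr4a1 held 4 half-sites, Dusp1 held 3, of which 2 form its CRE at bases -143 to -136, and Fos held 2, at bases -129 to -125 and -66 to -62 from the start. The whole CRE occurred only in Dusp1 among the 8, against 1.79% of all promoters. The AP-1 site TGANTCA and the CArG box bound by serum response factor were found in 0 of the 8 windows, against 7.81% and 1.63% of all promoters. Sites outside these windows were not searched, nor were the promoters of Egr1 and Ier2, so a motif not found here may lie elsewhere. A match of letters is a description and not a measured binding site.

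Of 59429 cell barcodes in the files, 44360 had 200 to 3000 genes and at most 10% mitochondrial UMIs and were kept, with 7562 to 14044 per library and a median of 2508 to 3732 UMIs per cell. Each kept cell was assigned to a class when it held at least 3 of the 6 markers of that class and at least 2 more than of any other of 16 classes, and 88.7% to 92.8% of the kept cells of a library passed. The 5 classes with at least 100 cells in every library were endothelial-like cells (4734 to 8904 per library), pericyte-like cells (266 to 625), vascular smooth muscle-like cells (710 to 1559), oligodendrocyte-like cells (769 to 2190) and microglia-like cells (103 to 364). In these 5 classes, 3 further markers that had no part in the assignment were 3.56 to 419 times as high as in the next class. Libraries shared 33 to 88 barcodes per pair. Endothelial-like cells made up 49.1% to 63.4% of the kept cells of these whole-hemisphere libraries, and neuron-like cells numbered 42 to 481, so that the libraries do not hold cells in the proportions of the tissue. The class names rest on these markers alone.

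The 10 genes together were a large part of the RNA of several classes. Their summed level, given as CPM (UMIs per 1000000 UMIs of the summed cells of a class in a library), was highest in microglia-like cells of the sham library, at 37945 CPM (37332 to 38566), or 3.79% of all UMIs. Vascular smooth muscle-like cells followed with 16274, then endothelial-like cells with 14427, pericyte-like cells with 11603, oligodendrocyte-like cells with 5264 and neuron-like cells with 3633. Astrocyte-like cells (753 CPM, 64 cells) and choroid plexus-like cells (689.2 CPM, 73 cells) were the lowest, and their intervals overlapped. The classes of 1 library went through the same digestion, and in sham the highest class had 55.1 times the summed level of the lowest, against 14 times on day 1. UMIs are counted near the 3′ end and do not scale with gene length, so levels of different genes are compared here only as UMIs.

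The order of the classes changed by day. In the day 1 library vascular smooth muscle-like cells came first with 16921 CPM, and microglia-like cells, at 10266, were below endothelial-like cells at 13483. In the day 3 and day 7 libraries microglia-like cells came first again, at 23125 and 31348 CPM. Vascular smooth muscle-like cells then had 17760 and 21566, and endothelial-like cells 10946 and 17305. Pericyte-like cells had 6389, 3819 and 7057 CPM on days 1, 3 and 7, each below the sham value. Oligodendrocyte-like cells had 6189, 3632 and 6010. Neighbours in the order whose intervals overlapped were, on day 1, fibroblast-like and endothelial-like, pericyte-like and oligodendrocyte-like, and astrocyte-like and neuron-like cells, on day 3 oligodendrocyte-like and neuron-like cells, and on day 7 T or NK-like and pericyte-like cells.

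**Figure D1:**
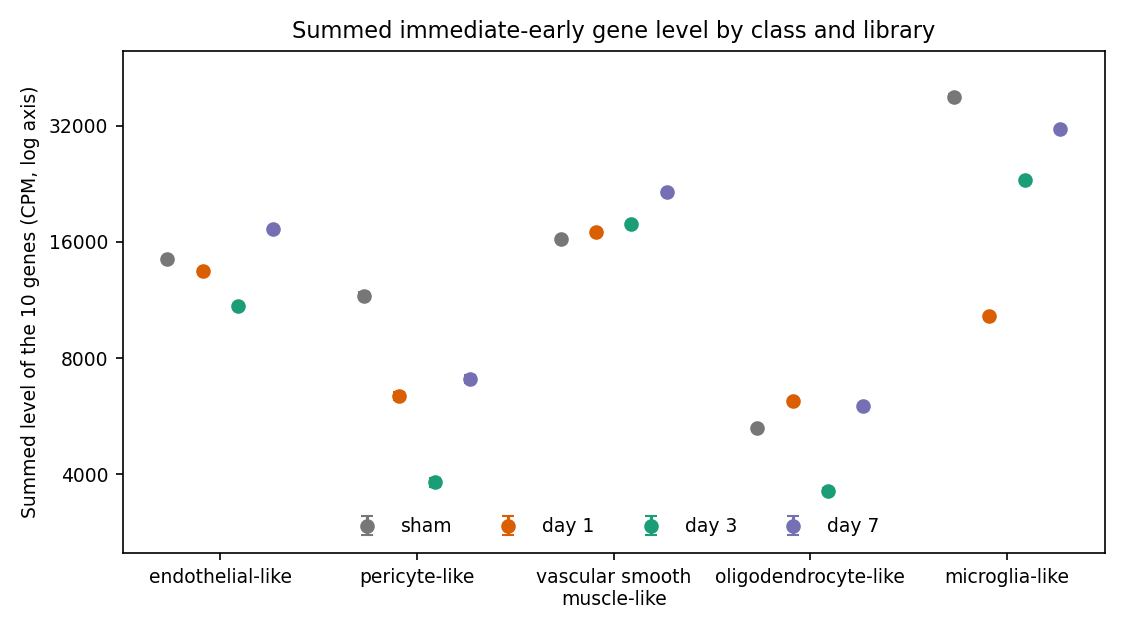
Summed level of the 10 genes (CPM, log axis) in 5 classes, with 1 point per library and bars for the 95% Poisson interval, which is mostly narrower than the point. Microglia-like cells ranged from 10266 CPM on day 1 to 37945 in sham, and vascular smooth muscle-like cells from 16274 in sham to 21566 on day 7.

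The lowest ratio of the summed level to sham was found in microglia-like cells. Their summed level on day 1 was 0.271 of that in sham (0.265 to 0.276), on day 3 it was 0.609 and on day 7 it was 0.826. In pericyte-like cells the ratios to sham were 0.551, 0.329 and 0.608. The ratios in the other classes were 0.935, 0.759 and 1.2 in endothelial-like cells, 1.04, 1.09 and 1.33 in vascular smooth muscle-like cells, and 1.18, 0.69 and 1.14 in oligodendrocyte-like cells.

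In endothelial-like cells the level of these genes also moved with the depth of the cell within a library. After 1000 UMIs had been drawn from every cell with at least that many, sham endothelial-like cells that had held 1000 to under 2000 UMIs kept a mean of 2.37 UMIs of the 10 genes, those with 2000 to under 4000 kept 4.98, and those with 4000 or more kept 19.6. Since every cell was thinned to the same number, this is a difference in the share of the RNA and not in the chance of detection. At least 10 of the 1000 UMIs came from the 10 genes in 4.11%, 14.1% and 70.6% of these cells. On day 1 the same groups had means of 6.27, 16.5 and 15.9, on day 3 1.67, 5.25 and 17.3, and on day 7 5.32, 14.1 and 25.9. The day 1 and day 7 cells of lower and middle depth were thus above sham cells of like depth, and the deep cells of day 1 were not.

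The median depth of endothelial-like cells was 2880 UMIs in sham and 1845, 2204 and 1998 on days 1, 3 and 7, so that the libraries compared also differed in depth. Oligodendrocyte-like cells showed little of the relation: in sham, those with at least 10 of 1000 UMIs from the 10 genes had a median of 7953 UMIs and the others 7938. Among cells with 1500 to 4000 UMIs alone, a limit chosen after the data were seen, the summed level of endothelial-like cells was 4891 CPM in sham and 15221, 4841 and 12829 on days 1, 3 and 7, so that the day 1 ratio went from 0.935 to 3.11 and the day 7 ratio from 1.2 to 2.62. In vascular smooth muscle-like cells it was 5462, 18078, 12567 and 18835 CPM, with 64 sham cells in the range. Most sham cells of this class were deeper, and 636 held 4000 or more UMIs. In vascular smooth muscle-like cells of that greater depth the mean of the 10 genes per 1000 UMIs drawn differed little on days 1 and 3. It was 16.4 in sham and 16.5, 18 and 22 on days 1, 3 and 7. Pericyte-like cells had 9960, 8697, 4004 and 7068 CPM, which left the day 3 ratio at 0.402 and brought the day 1 ratio to 0.873. Oligodendrocyte-like cells, of which 44 sham cells were in the range, had 4151, 4764, 4672 and 6811 CPM. Microglia-like cells had 27021, 13359, 9582 and 31242 CPM, with 26 sham cells in the range, so that days 1 and 3 stayed below sham and day 7 was above it.

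**Figure D2:**
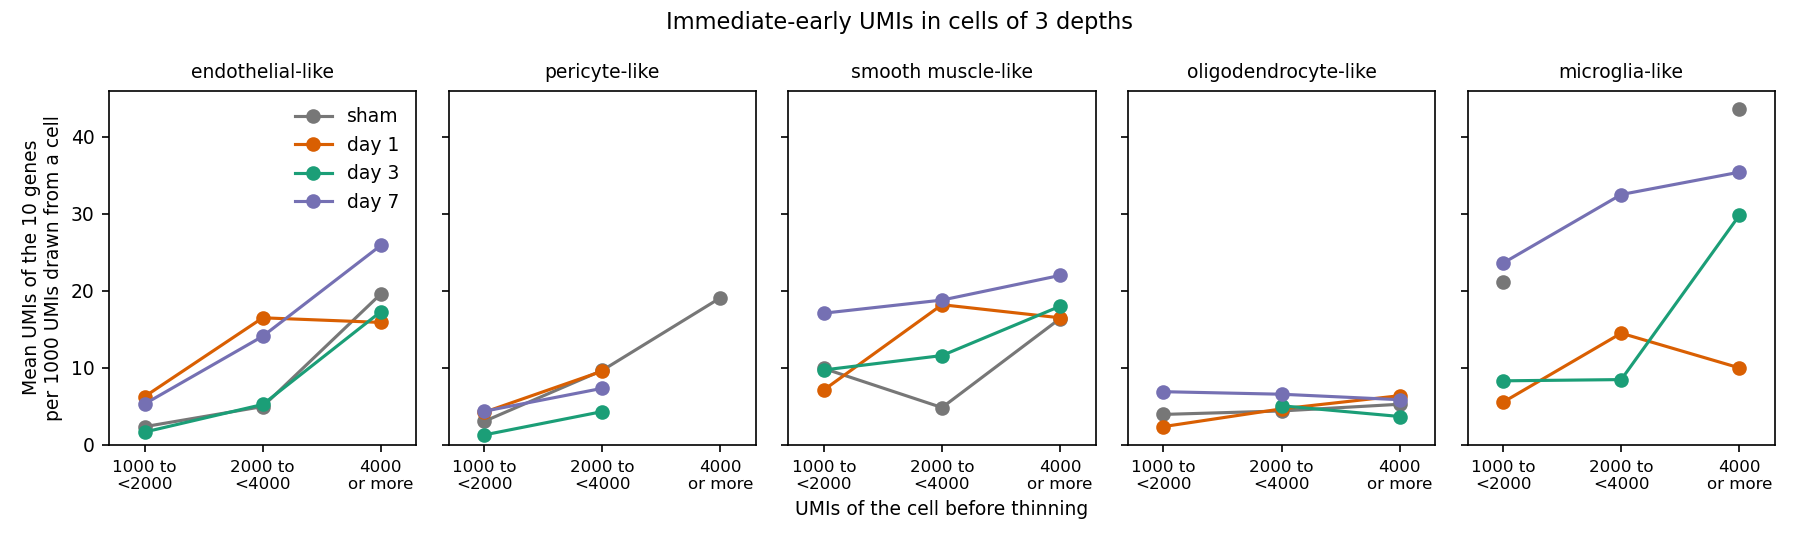
Mean UMIs of the 10 genes per 1000 UMIs drawn from a cell, for cells of 3 depths before thinning, in 5 classes and 4 libraries; groups of under 20 cells are not drawn. In endothelial-like cells the sham mean goes from 2.37 to 19.6 with depth, and in microglia-like cells day 1 stays at 5.55 to 14.5.

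Each gene was compared with sham within each of the 5 classes on each day, which gives 150 ratios. A ratio was counted as lower or higher when it passed 2-fold, as log2 of CPM + 5, in a gene with at least 20 CPM in either library. All 10 genes reached that level in all 5 classes. Of the 150 ratios, 20 were lower, 12 were higher and 118 were neither. The lower ratios came from pericyte-like cells (12) and microglia-like cells (8), and the higher from oligodendrocyte-like (5), endothelial-like (3), vascular smooth muscle-like (2), pericyte-like (1) and microglia-like (1) cells.

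In microglia-like cells, 8 of the 10 genes were lower on day 1 and 1, Nr4a1, was higher, against 13.3% of the 6067 genes compared that were lower and 10.6% that were higher. The median log2 ratio of the 10 was -1.67, against -0.18 over all genes compared. On day 3, 0 of the 10 passed 2-fold either way, against 3.46% lower and 5.36% higher in the background, and on day 7 again 0, against 3.27% and 5.55%. With up to 6000 genes per cell kept in place of 3000, 14 of the 30 microglia-like ratios were lower. No share of all genes is given for that setting, so this count is not read as a result about the 10 genes. Among cells with 1500 to 4000 UMIs, of which sham has 26, 4 genes were lower and 1 was higher on day 1, against 29.8% and 18.7% of all genes compared in that range, and Fos, Junb, Atf3 and Dusp1 no longer passed. On day 3, 8 were lower there, against 18.5%, and on day 7 0 were lower and 2 higher, against 23.6% and 16%. The microglia-like counts of days 1 and 3 thus differed between all kept cells and this range, where the shares over all genes were higher too. The cause was not tested.

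In pericyte-like cells 4 were lower and 1 higher on day 1, against 2.42% lower and 3.35% higher over all genes. On day 3, 7 were lower and 0 higher, against 1.14% and 1.55%, with a median log2 ratio of -1.80 for the 10 and 0.09 for all genes. On day 7, 1 was lower and 0 higher, against 1.25% and 4%. Among pericyte-like cells with 1500 to 4000 UMIs, 0 were lower and 2 higher on day 1, against 5.32% and 4.18% of all genes in that range, 6 were lower on day 3, against 1.94%, and 1 was lower and 1 higher on day 7, against 1.88% and 4.3%. The lower ratios of day 3 were thus mostly found in that range too, and those of day 1 were not.

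In endothelial-like cells the counts were 0 lower and 1 higher on day 1, against 1.99% and 1.43% of all genes compared. On day 3 they were 0 and 0, against 0.791% and 1.93%, and on day 7 0 and 2, against 0.673% lower and 0.673% higher. In vascular smooth muscle-like cells none passed on day 1, against 1.06% lower and 1.61% higher, or on day 3, against 0.17% and 0.375%. On day 7, 2 were higher and 0 lower, against 1.54% higher and 0.195% lower. In oligodendrocyte-like cells 3 were higher and 0 lower on day 1, against 1.88% and 0.826%. None passed on day 3, against 0.559% higher and 0.157% lower, and 2 were higher and 0 lower on day 7, against 2.07% and 0.435%. Among cells with 1500 to 4000 UMIs, endothelial-like cells had 10 higher ratios on day 1, 0 on day 3 and 8 on day 7, against 2.1%, 1.75% and 0.653% of all genes compared in that range. Vascular smooth muscle-like cells had 9, 5 and 9 on days 1, 3 and 7, against 4.96%, 6.68% and 4.57%, and oligodendrocyte-like cells 1, 3 and 2, against 9.92%, 13.8% and 12.2%. None of the 10 was lower in these 3 classes there, against 4.47%, 1.22% and 0.898% of all genes in endothelial-like, 27.2%, 12.1% and 11.4% in vascular smooth muscle-like and 17.5%, 12.7% and 10.2% in oligodendrocyte-like cells on days 1, 3 and 7.

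**Figure D3:**
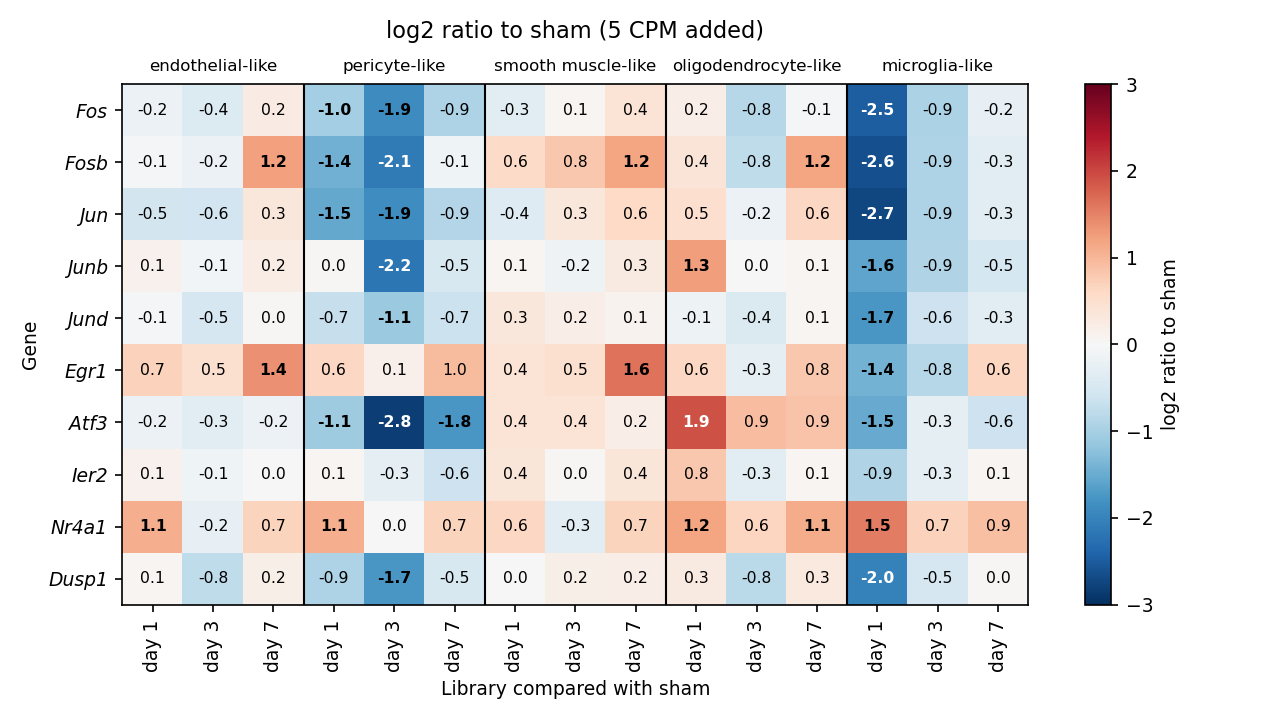
log2 ratio of each gene to sham (5 CPM added) in 5 classes on days 1, 3 and 7; blue is lower and red is higher than sham, and bold values passed 2-fold. Day 1 microglia-like and day 3 pericyte-like cells hold 15 of the 20 lower ratios, and the Nr4a1 row is above 0 on day 1 in each class.

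The levels and ratios of single genes in the paragraphs that follow are over all kept cells of a class, unless cells with 1500 to 4000 UMIs are named. In that range sham has 26 microglia-like, 44 oligodendrocyte-like and 64 vascular smooth muscle-like cells, and no interval is given for its values. The 64 cells are shallow for their class, whose sham median was 6968 UMIs.

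Fos and Fosb (ENSMUSG00000021250, chr12:85473890-85477273, and ENSMUSG00000003545, chr7:19302696-19310051, in GRCm38) encode the FOS subunits of AP-1, which bind DNA only when paired with a JUN protein. Fos was the leading gene of the 10 in endothelial-like, pericyte-like and vascular smooth muscle-like cells of sham, where it gave 27.1%, 27.7% and 29.1% of the summed level. In microglia-like cells Fos was at 7043 CPM in sham, 1262 on day 1, 3640 on day 3 and 5952 on day 7. Day 1 was the low library, with a ratio to sham of 0.179 (0.17 to 0.189). Among the 26 sham and 102 day 1 cells with 1500 to 4000 UMIs, its log2 ratio was -0.42 in place of -2.48. In that range Fos was at 2336, 1745, 1490 and 6179 CPM, lowest on day 3. Its day 7 ratio there was 2.64, past 2-fold, in place of 0.845. In pericyte-like cells Fos was at 3211, 1572, 859.8 and 1681 CPM, lowest on day 3 with a ratio of 0.268 (0.249 to 0.287), and its day 1 log2 ratio was -0.22 among cells with 1500 to 4000 UMIs. Oligodendrocyte-like cells had 1871, 2163, 1037 and 1803 CPM, with day 3 lowest but within 2-fold, and in the same range of depth the day 3 ratio was 0.994. Endothelial-like cells had 3908, 3459, 2912 and 4643 CPM, and vascular smooth muscle-like cells 4729, 3812, 4923 and 6290, both highest on day 7. On day 1 both were below sham over all kept cells, and among cells with 1500 to 4000 UMIs both were above it. There endothelial-like cells had 910.6, 3878, 1078 and 3266 CPM, highest on day 1, and vascular smooth muscle-like cells 1205, 3989, 3787 and 5745.

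Fosb, whose protein shares its pairing and DNA-binding regions with FOS, was found at lower levels than Fos in every class and library. Fosb was at 789.8, 123.6, 413.8 and 630.4 CPM in microglia-like cells of sham and days 1, 3 and 7, with a day 1 ratio of 0.156 (0.131 to 0.186). In pericyte-like cells it was at 406.5, 145.1, 90.12 and 371.4 CPM, low on days 1 and 3 and close to sham on day 7, with a day 1 log2 ratio of -0.66 among cells with 1500 to 4000 UMIs. Over all kept cells the day 7 libraries held the highest values in the other classes. Endothelial-like cells went from 340 CPM in sham, 327.8 on day 1 and 302.2 on day 3 to 797 on day 7, a ratio of 2.34 (2.27 to 2.42). Oligodendrocyte-like cells had 136.4, 180.4, 78.3 and 318.6 CPM, also with a day 7 ratio of 2.34 (2.15 to 2.54), and vascular smooth muscle-like cells 421.4, 628.5, 741.6 and 961.4, with a ratio of 2.28. Among cells with 1500 to 4000 UMIs the day 7 log2 ratio of Fosb was 2.24 in endothelial-like, 0.91 in oligodendrocyte-like and 2.66 in vascular smooth muscle-like cells, so that the oligodendrocyte-like ratio no longer passed. Fos in the same cells and library was at 1.19, 0.964 and 1.33 of sham, and in that range of depth at log2 ratios of 1.84, 0.72 and 2.25. Fosb in that range also passed 2-fold on other days. Its ratio was 2.9 in endothelial-like cells on day 1. In vascular smooth muscle-like cells it was 5.02 on day 1 and 3.32 on day 3, and day 7 was highest in both classes.

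Jun (ENSMUSG00000052684, chr4:95049034-95052222) encodes the JUN subunit that pairs with FOS and drives growth and stress responses. In microglia-like cells it was at 7540 CPM in sham, 1136 on day 1, 3942 on day 3 and 5954 on day 7. Day 1 stood lowest, at a ratio of 0.151 (0.142 to 0.159), which was the lowest ratio of any of the 10 genes in that class. Pericyte-like cells had 2792, 962.6, 766 and 1512 CPM, with ratios of 0.345, 0.274 and 0.541. All 3 days were below sham, and days 1 and 3 passed 2-fold. Among pericyte-like cells with 1500 to 4000 UMIs the day 1 log2 ratio was -0.79, short of 2-fold. In endothelial-like cells Jun was at 2946, 2019, 1968 and 3709 CPM, lower on days 1 and 3 (0.685 and 0.668) and higher on day 7 (1.26). The day 1 direction turned among cells with 1500 to 4000 UMIs, where the log2 ratios were 1.11, -0.45 and 1.28 on days 1, 3 and 7, with days 1 and 7 past 2-fold. Jun in vascular smooth muscle-like cells was at 1572, 1211, 1993 and 2378 CPM, and in the same range at 480.9, 1360, 1636 and 2117, so that day 1 turned from below to above sham there too. Oligodendrocyte-like cells had 522.7, 740.3, 463.2 and 811.3 CPM, all within 2-fold of sham. Among those with 1500 to 4000 UMIs day 1 turned from above to below sham, at 474.6 against 664.8 CPM.

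Junb (ENSMUSG00000052837, chr8:84974484-84978718) encodes a JUN subunit that can hold back JUN in AP-1 pairs. Its gene model overlaps Prdx2 on the other strand, as those of Jun, Jund and Atf3 overlap Junos, Gm11175 and Gm24748. Microglia-like cells had 6726, 2225, 3576 and 4657 CPM in sham and on days 1, 3 and 7, a day 1 ratio of 0.331 (0.315 to 0.347). On day 1 it was the leading gene of the 10 in these cells, with 21.7% of the summed level, ahead of Atf3 with 16.4%, whereas Jun and Fos led in sham. In pericyte-like cells Junb was at 906.2, 930.3, 199.1 and 649.4 CPM. It was level with sham on day 1 (1.03, 0.928 to 1.14) and 0.22 of sham on day 3 (0.19 to 0.253). Its day 1 log2 ratio was 0.60 among pericyte-like and -0.59 among microglia-like cells with 1500 to 4000 UMIs. Oligodendrocyte-like cells were high on day 1, with 187.8 CPM in sham, 458.3 on day 1, 190.4 on day 3 and 194.6 on day 7, a day 1 ratio of 2.44 (2.28 to 2.61), and a log2 ratio of 0.94, short of 2-fold, in the same range of depth. In that range day 3 was highest, at 383 CPM against 153.4 in sham, a ratio of 2.5. Endothelial-like cells (1718 to 2133 CPM) and vascular smooth muscle-like cells (3172 to 4261 CPM) stayed within 2-fold over all kept cells. Among those with 1500 to 4000 UMIs Junb was higher on days 1 and 7, at ratios of 4.19 and 2.85 in endothelial-like and 3.14 and 2.87 in vascular smooth muscle-like cells.

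Jund (ENSMUSG00000071076, chr8:70698949-70700616) encodes the JUN subunit known for steady expression in resting cells. Over all kept cells it varied least of the 10 genes, 3.9-fold between its lowest value in the 5 classes (1269 CPM, pericyte-like, day 3) and its highest (4944 CPM, microglia-like, sham), against 8.19-fold for Fos and 327-fold for Atf3. In microglia-like cells Jund was at 4944, 1478, 3193 and 3946 CPM, with a day 1 ratio of 0.299 (0.282 to 0.317), and in pericyte-like cells at 2764, 1701, 1269 and 1758, with a day 3 ratio of 0.459 (0.43 to 0.49). These were the 2 of its 15 ratios that passed 2-fold. Among cells with 1500 to 4000 UMIs 6 of 15 passed. The 2 lower ones were in microglia-like cells on days 1 and 3, and the 4 higher ones were in endothelial-like cells on day 1 (2.35) and in vascular smooth muscle-like cells on all 3 days (3.9, 2.32 and 2.67). The pericyte-like day 3 log2 ratio was -0.89 there and no longer passed. It led the 10 genes in the classes with the lowest summed level, giving 61.4% of it in choroid plexus-like, 37.1% in oligodendrocyte-like, 35.3% in astrocyte-like and 32.9% in neuron-like cells of sham.

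**Figure D4:**
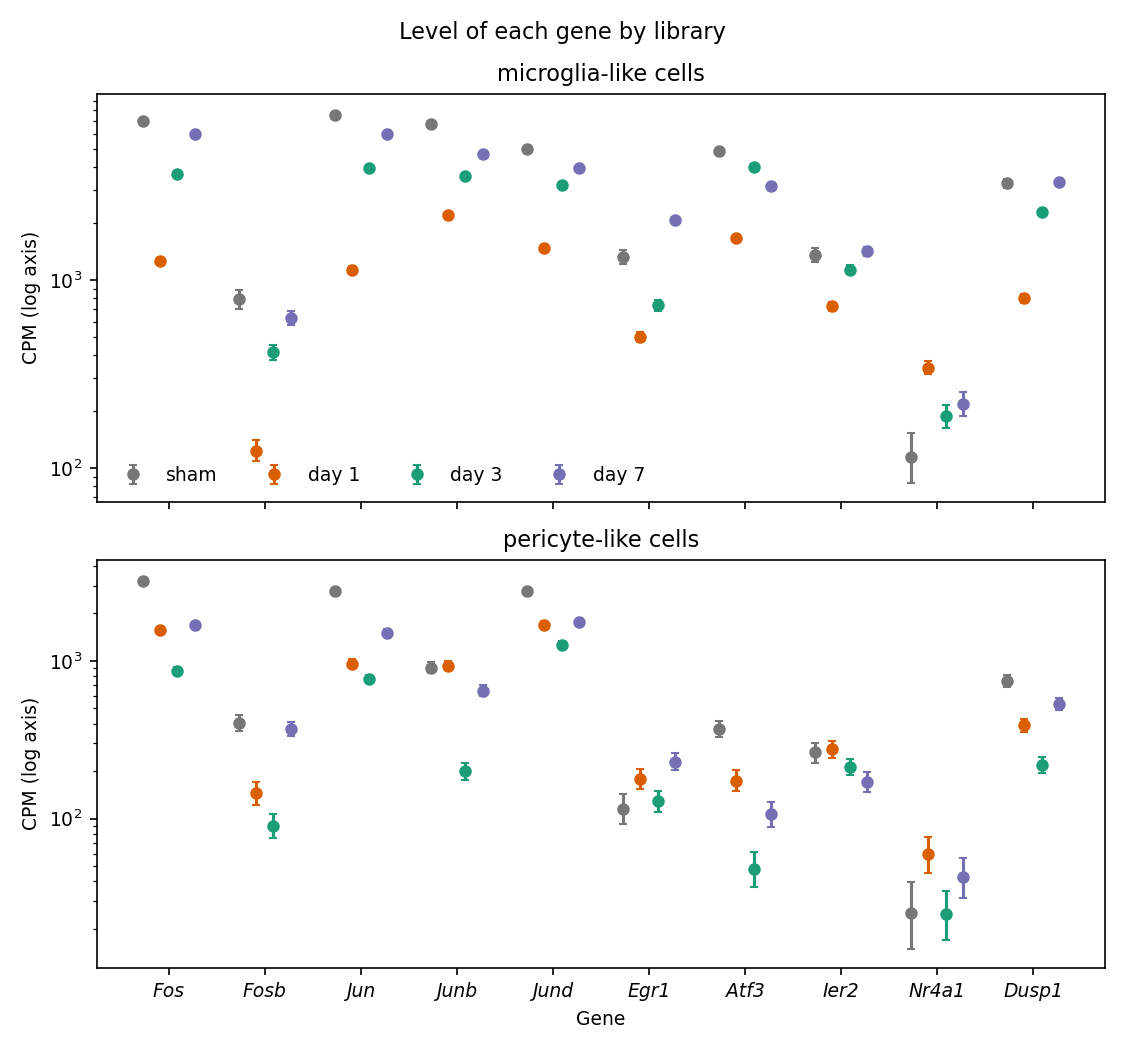
Level of each gene (CPM, log axis) in microglia-like and pericyte-like cells, with 1 point per library and bars for the 95% Poisson interval. Over all kept microglia-like cells the day 1 point is the lowest of 4 for every gene but Nr4a1, where it is the highest, at 341.8 CPM.

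Atf3 (ENSMUSG00000026628, chr1:191170296-191218039) encodes a stress-induced factor of the ATF/CREB family that mostly represses transcription. It had the widest range of levels of the 10. In microglia-like cells Atf3 was at 4835 CPM in sham, 1681 on day 1, 4000 on day 3 and 3174 on day 7, and in oligodendrocyte-like cells at 14.79, 69.47, 32.34 and 31.01 CPM. It gave 12.7% of the summed level in microglia-like cells of sham and 0.281% in oligodendrocyte-like cells, so the genes did not keep the same proportions between classes of 1 library. The day 1 ratio was 0.348 (0.328 to 0.368) in microglia-like cells and 4.7 (3.75 to 5.96) in oligodendrocyte-like cells. Among microglia-like cells with 1500 to 4000 UMIs the log2 ratio was -0.42. The oligodendrocyte-like ratio rests on low levels, and among oligodendrocyte-like cells with 1500 to 4000 UMIs its log2 ratio was -0.25, below 0. The sham level there, 42.61 CPM, comes from 44 cells and a few UMIs, so no change of direction is read from it. In pericyte-like cells Atf3 was at 371.7, 174.4, 47.97 and 106.9 CPM. Its day 1 ratio there was 0.469, and its log2 ratio was 0.01 among cells with 1500 to 4000 UMIs. The day 3 ratio, 0.129 (0.097 to 0.17), was the lowest of all 150, and day 7 remained below sham at 0.288 (0.23 to 0.358). Endothelial-like cells (586.4 to 738.9 CPM) and vascular smooth muscle-like cells (1137 to 1516 CPM) stayed within 2-fold over all kept cells. Among those with 1500 to 4000 UMIs Atf3 was higher in endothelial-like cells on days 1 and 7, at ratios of 4.89 and 2.7, and in vascular smooth muscle-like cells on days 1, 3 and 7, at 7.84, 3.55 and 5.06.

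Egr1 (ENSMUSG00000038418) encodes a zinc finger factor induced by growth factors and synaptic activity. Over all kept cells of the 5 classes its highest values lay on day 7. Vascular smooth muscle-like cells had 315.7 CPM in sham, 417.7 on day 1, 441.6 on day 3 and 987.2 on day 7, a ratio of 3.13 (2.96 to 3.31). Endothelial-like cells had 225.5, 364.4, 315.5 and 589.1 CPM, a day 7 ratio of 2.61 (2.52 to 2.71). Among those with 1500 to 4000 UMIs the ratio was 3.6 on day 1 and 4.11 on day 7. Pericyte-like cells, at 115.5, 178.4, 128.6 and 230.1, reached 1.99 (1.55 to 2.58) on day 7, and 2.08 among cells with 1500 to 4000 UMIs, where day 1, at 2.11, passed 2-fold as well, and oligodendrocyte-like cells, at 138.4, 215.7, 112.9 and 244.4, reached 1.77. Over all kept cells the day 7 library held the highest Egr1 level in each of the 5 classes, and among cells with 1500 to 4000 UMIs in each but pericyte-like cells, at 237.4 CPM on day 1 and 233.5 on day 7. Microglia-like cells had 1330, 496.9, 735.3 and 2072 CPM, 0.374 of sham on day 1 (0.335 to 0.417) and 1.56 on day 7. Among those with 1500 to 4000 UMIs day 3 was lowest, at 0.201 of sham. The day 7 ratios of endothelial-like and vascular smooth muscle-like cells stayed past 2-fold in each of 13 alternative settings, at log2 1.29 to 1.98 and 1.56 to 1.72.

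Nr4a1 (ENSMUSG00000023034, chr15:101254269-101274795) encodes an orphan nuclear receptor that responds quickly to calcium and inflammatory signals and restrains inflammatory genes in myeloid cells. Its day 1 level was above sham in each of the 5 classes. It was at 145.2 CPM in sham, 313.9 on day 1, 121.5 on day 3 and 232.4 on day 7 in endothelial-like cells, a day 1 ratio of 2.16 (2.06 to 2.27), which held past 2-fold in 12 of 13 alternative settings (log2 0.56 to 2.64). Vascular smooth muscle-like cells, with the highest levels of any class in each library, had 573.2, 885.6, 456.6 and 912.3 CPM and a day 1 ratio of 1.54 (1.46 to 1.63). Among those with 1500 to 4000 UMIs the ratios were 3.37 on day 1 and 2.52 on day 7, both past 2-fold. Oligodendrocyte-like cells had 17.61, 46.11, 30.26 and 44.05 CPM and a ratio of 2.62 (2.11 to 3.28), and pericyte-like cells 25.06, 59.47, 24.71 and 42.57 CPM and a ratio of 2.37 (1.38 to 4.28). In microglia-like cells Nr4a1 was at 114.3, 341.8, 188.2 and 218.8 CPM, so that sham was the lowest and day 1 the highest, with a ratio of 2.99 (2.2 to 4.16). Each of the other 9 genes was lowest on day 1 in the same cells. Among microglia-like cells with 1500 to 4000 UMIs Nr4a1 was at 47.68, 326.5, 32.9 and 103 CPM, still highest on day 1. The sham value there comes from 26 cells and a few UMIs, so no order of sham and day 3 is read from it. Of the other 9 genes only Fosb and Jun were lowest on day 1 in that range. The microglia-like ratio was past 2-fold in each of 13 alternative settings (log2 1.13 to 2.65), and the highest value is that of the same range of depth. The oligodendrocyte-like ratio held in 10 of 12 and the pericyte-like one in 8 of 12.

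Ier2 (ENSMUSG00000053560, chr8:84661331-84662852) encodes a small nuclear regulator of early transcription. It passed 2-fold in 0 of its 15 ratios, and in 6 of 15 among cells with 1500 to 4000 UMIs, 5 of them higher and 1, microglia-like on day 3, lower. In microglia-like cells it was at 1359, 724.6, 1131 and 1417 CPM, with a day 1 ratio of 0.533 (0.482 to 0.591), the mildest lower ratio of the 9 genes there. Among microglia-like cells with 1500 to 4000 UMIs the day 1 ratio was 1.01, so that day 1 was level with sham. Oligodendrocyte-like cells were highest on day 1 over all kept cells, at 61.27, 110.2, 48.6 and 63.9 CPM, a ratio of 1.8 (1.6 to 2.03). Among those with 1500 to 4000 UMIs they had 25.57, 73.15, 145.5 and 89.14 CPM. Day 3 was highest there. The sham value comes from 44 cells and a few UMIs, so no turn from below to above sham is read from it. The higher oligodendrocyte-like ratios of Ier2 in that range all share this sham value. Endothelial-like cells (728.1 to 874.2 CPM), pericyte-like cells (171.2 to 275.2) and vascular smooth muscle-like cells (460.5 to 594.8) stayed within 2-fold over all kept cells.

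Dusp1 (ENSMUSG00000024190, chr17:26505590-26562128) encodes a phosphatase that switches off the p38 and JNK kinases, which act upstream of several early genes. Its gene model overlaps AC122252.4 and AC122252.1 on the same strand, whose reads cannot be told apart from its own where they overlap. Microglia-like cells had 3263, 797.2, 2306 and 3328 CPM, a day 1 ratio of 0.244 (0.227 to 0.263), a day 1 log2 ratio of -0.95 among cells with 1500 to 4000 UMIs, and a day 7 ratio of 1.02 (0.954 to 1.09). Pericyte-like cells had 747.5, 390.1, 220.2 and 534.4 CPM, lowest on day 3 at 0.295 (0.255 to 0.34). Day 3 was also the lowest library in endothelial-like cells, at 1391, 1463, 811.6 and 1564 CPM, and in oligodendrocyte-like cells, at 363.0, 441.2, 205 and 448.3, with ratios of 0.584 and 0.565. Among oligodendrocyte-like cells with 1500 to 4000 UMIs day 3 was above sham, at 371.5 against 221.6 CPM, whereas the endothelial-like ratio was 0.732. Endothelial-like ratios in that range were 3.19 on day 1 and 2.41 on day 7, both past 2-fold. In vascular smooth muscle-like cells Dusp1 was at 1101, 1103, 1236 and 1265 CPM over all kept cells and at 541.7, 1239, 1068 and 1156 in that range, where days 1 and 7 passed 2-fold.

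Several of the genes were often detected in the same cell. Of cells thinned to 1000 UMIs, at least 6 of the 10 genes were detected in 67.8% of microglia-like cells of sham (57.1 to 77.2, 90 cells), 31% on day 1 (26 to 36.2, 336 cells), 46.6% on day 3 (40.1 to 53.2, 234 cells) and 82.2% on day 7 (75.8 to 87.5, 180 cells). The median microglia-like cell held 32 UMIs of the 10 genes per 1000 in sham, 6 on day 1, 11.5 on day 3 and 32 on day 7. On day 7 the median and the share of cells were thus not below sham, although the summed level was at 0.826 of it. In pericyte-like cells at least 6 genes were detected in 14.5%, 10.7%, 3.39% and 10.1% of cells. The lowest class for comparison was astrocyte-like cells, with 0 of 58 cells in sham (0 to 6.16%), and choroid plexus-like cells had 1.45%. A limit of 3 counts, a different bound for a share of 0, would be 5.17% of the 58 cells.

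Within a class the UMIs were spread unevenly over cells. In endothelial-like cells of the day 3 library the top 10% of cells held 55.8% of the UMIs of the 10 genes, against 39.2% in sham, 36.5% on day 1 and 37.6% on day 7, and the 75th percentile was 6 UMIs against 17, 19 and 22. In pericyte-like cells the top 10% held 46%, 60.1%, 68.9% and 53%. In vascular smooth muscle-like cells they held 22.7% to 28.5%. Endothelial-like cells in which at least 10 of 1000 UMIs came from these genes were deeper than the rest of their class. In sham their median was 5540 UMIs, against 2354 in the other cells, and their median mitochondrial share was 2.38% against 3.31%. On day 1 the medians were 3091 and 1861 UMIs, on day 3 4981 and 2097, and on day 7 3931 and 1830. The same medians in sham were 5323 and 1453 UMIs in microglia-like, 3586 and 2515 in pericyte-like and 7320 and 6094 in vascular smooth muscle-like cells.

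Shares of cells with a UMI of a given gene were taken at 1000 UMIs per cell. Fos was detected in 68.9% of microglia-like cells in sham (58.3 to 78.2), 46.1% on day 1 (40.7 to 51.6), 56.4% on day 3 and 84.4% on day 7, and Nr4a1 in 7.78%, 20.5%, 9.83% and 11.1%. The Fos share was highest on day 7 and its CPM highest in sham, so no order between these libraries is read from it. In astrocyte-like and choroid plexus-like cells of sham, the classes with the lowest levels, Fos was detected in 12.1% and 5.8% of cells and Nr4a1 in 1.72% and 2.9%. The median depth before thinning was 3909 UMIs in microglia-like cells of sham, 2840 in astrocyte-like and 3334 in choroid plexus-like cells. The Nr4a1 share of pericyte-like cells, 1.66%, 3.56%, 1.43% and 3.17%, lay close to these lowest shares, so no expression is read from it. The pericyte-like ratio of Nr4a1 on day 1 rests on 18 UMIs in sham. In endothelial-like cells the Fos share was 44% in sham and 54.4% on day 1 while the CPM was lower on day 1, so here too no order is read from the share.

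Smaller classes had at least 50 cells in some libraries only. Fibroblast-like cells of day 1 (121 cells) had a summed level of 13765 CPM, close to endothelial-like cells, with Fos at 3226 and Egr1 at 706.7, the highest Egr1 level of that library. T or NK-like cells of day 7 (91 cells) had 7397 CPM, and Junb alone, at 2745 CPM, gave 37.1% of it. Neuron-like cells had 3633 CPM in sham, 1988 on day 1 and 3468 on day 3, with Fos at 782.2, 244.2 and 707.8 and Jund at 1196, 857.9 and 1388. Astrocyte-like cells had 753, 2055 and 1793 CPM in the same libraries, from 64, 191 and 72 cells, and choroid plexus-like cells 689.2, 1209 and 2211 CPM in sham and on days 1 and 7. Fibroblast-like cells of day 1 had their own check markers only 1.69 times as high as the next class.

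The microglia-like cells also held markers of other blood and border cells, at levels that moved with the day. The 9 markers of monocytes summed to 270, 1087, 1011 and 3489 CPM in sham and on days 1, 3 and 7. Of the 9, 5, 8, 4 and 6 were detected in these libraries, with Ly6c2 at 0 in each. The 9 markers of border macrophages summed to 88.3, 558, 290 and 295 CPM, with 3, 8, 4 and 7 detected and Lyve1 at 0 in each library. Those of endothelial cells summed to 179, 179, 209 and 210. The microglial markers summed to 30429, 22605, 30253 and 25396 CPM. The part of these differences in the levels of the immediate-early genes was not tested. In a bulk sum over the cells of a class, fewer cells with the genes and less of them per cell cannot be told apart except through the shares above.

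Other early genes were compared from 3 lists. In microglia-like cells on day 1, where 13.3% of all genes compared were lower and 10.6% higher, of 14 other immediate-early transcription factors, 7 were abundant enough to compare, 4 were lower (Egr2, Klf2, Klf4, Klf6) and 1 was higher (Fosl2). Klf2, a flow-responsive and quiescence-linked factor, was at 3136, 749, 3522 and 3074 CPM, and so was not below sham on day 3, when the summed level of the 10 genes was at 0.609 of sham. Klf4 was at 416, 66.3, 389 and 351 CPM and Klf6 at 1109, 358, 998 and 1262. Of 16 early response regulators and feedback inhibitors, 15 were compared and 8 were lower on day 1 (Btg2, Dusp6, Spry1, Ier5, Zfp36, Nfkbia, Socs3 and Rhob). They include Btg2, an antiproliferative gene (2143, 445, 1747 and 2848 CPM), and Dusp6, a phosphatase of ERK (478, 104, 203 and 581 CPM), and 1 regulator, Dusp5, was higher. Spry1, an inhibitor of growth factor signalling, was at 107, 9.47, 47.9 and 40.8 CPM. Cyr61 was near 0 in sham (2.6 CPM) and at 36.3 CPM on day 7, where its ratio has an interval of 2.33 to 569.

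Heat shock genes, which dissociation also induces, showed other patterns. In microglia-like cells 1 of 10 (Dnajb1, 133 CPM in sham and 39.4 on day 1) was lower and 1 (Hspa1b) higher on day 1, and 3 were lower on day 7, Hspa1a, Hspa1b and Dnajb1, against 3.27% of all genes compared. Hspe1 in these cells was at 153, 295, 247 and 215 CPM. In endothelial-like cells Hspa1b was at 83.6 CPM in sham, 994 on day 1, 1020 on day 3 and 89.7 on day 7, and Hspa1a at 262, 1371, 1462 and 347. Days 1 and 3 were the high libraries for both. Hspa1a and Hspa1b are near-identical copies, and the division of reads between them is uncertain. The same genes were past 2-fold higher on days 1 and 3 in vascular smooth muscle-like and oligodendrocyte-like cells, and 4 of the 10 heat shock genes were higher in the latter on day 1. Of all genes compared, 1.61% and 0.375% were higher on days 1 and 3 in the former class and 1.88% and 0.559% in the latter. Ier3, an early gene that limits cell death, was also highest on day 3 in endothelial-like cells, at 323, 812, 1529 and 386 CPM. Of the other lists in these cells, Fosl2 (26.5, 45.9, 58.9 and 52.1 CPM) was the only transcription factor to pass 2-fold, on day 3. Klf4, at 778, 478, 527 and 969 CPM, and Klf6, at 686, 423, 412 and 715, were below sham on days 1 and 3 over all kept cells, and Egr3 was low throughout, at 9.51 to 23.8 CPM. Zfp36, which speeds the decay of cytokine mRNAs, was at 420, 589, 353 and 805 CPM, Zfp36l1 at 311, 541, 386 and 553, and Socs3, an inhibitor of cytokine signalling, at 124, 150, 235 and 116. The chaperone genes Dnaja1 (495, 324, 489 and 318 CPM) and Dnajb1 (90, 134, 138 and 63.5 CPM) stayed within 2-fold of sham.

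In pericyte-like cells on day 3, where 1.14% of all genes compared were lower and 1.55% higher, 2 of 4 compared transcription factors (Klf2, Klf4) and 4 of 15 regulators (Ier5, Socs3, Gadd45b and Cyr61) were lower, and none was higher. The median log2 ratio was -0.94 for the first list and -0.60 for the second, against 0.09 for all genes. The heat shock list had a median of 0.64, with Hspa1b higher.

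Likeness to the 10 genes was measured over the 20 units of 5 classes in 4 libraries, as Pearson's r between the mean log2(CPM + 10) of the 10, centred within each class, and that of each of 3602 other genes. The units of a class share the gate and those of a library its preparation and depth, so that r is a description. Among the genes most like the 10 were Klf4 (r = 0.917), Ivns1abp (0.847), Ogfrl1 (0.838), Tmx4 (0.830), Elmo1 (0.821), Nudt4 (0.820), Btg2 (0.817), Zfp36 (0.815) and Csrnp1 (0.806), where the 95th percentile of all genes was 0.623. The least alike were Cct7 (-0.883), Arhgdia (-0.850), Prdx3 (-0.841), Mrpl42 (-0.839) and Yif1b (-0.826). Among the 10 themselves, each set against the mean of the other 9, Dusp1 (0.931) and Fos (0.921) were most alike, then Jun (0.873), Fosb (0.869), Jund (0.852), Junb (0.798), Atf3 (0.700), Ier2 (0.699) and Egr1 (0.616). Nr4a1, at -0.097, did not vary with the others.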

How the data were processed

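Single cells of 4 libraries (sham, and 1, 3 and 7 days after tMCAO) were analysed from UMI counts per gene and cell, as deposited by the authors, not normalized and restricted to called cells. The matrix headers name Cell Ranger 4.0.0, whereas the submitters' processing notes name Cell Ranger 3.0.1, Seurat 4.1.2 and GRCh38; the gene identifiers are mouse identifiers, and 99.9% of them matched the GENCODE vM21 annotation of GRCm38. Depth was 69392755 to 104023002 UMIs per library before filtering.

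The study's limits were applied to each cell: between 200 and 3000 detected genes, and no more than 10% of UMIs from mitochondria. Classes came from marker gates, not from clustering, and cells with markers of several classes (3.99% to 7.82%) or of none (2.16% to 3.5%) were left out; no doublet caller was run. UMIs were summed per class and library, with exact Poisson intervals, exact conditional intervals for ratios and Clopper-Pearson intervals for shares, at 95%. UMIs were counted as molecules, and the spread between mice is not covered. Levels are given for classes of at least 50 cells and ratios to sham for classes of at least 100 in every library. Ratios used 5 added CPM and at least 20 CPM, and likeness used 10 added CPM and a mean of at least 50. Thinning drew 1000 UMIs per cell without replacement. Of the other lists, the text names the 4 genes with the largest ratio in endothelial-like and in microglia-like cells and, added after the values were seen, others that passed 2-fold. A gene that the rule for likeness selects is not reported here. The calculations were tested on simulated data. Python 3.11.15, numpy 2.4.6, scipy 1.17.1, pandas 2.3.3 and matplotlib 3.10.9 were used. The alternatives were other gates, limits, scalings, added CPM, thinning depths and, chosen after seeing the data, cells of 1500 to 4000 UMIs. The members and lists were chosen with earlier results of these data known.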

Additional observations from a re-analysis of the deposited data

Results flagged for a closer look

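Genes that passed 2-fold in opposite directions in different classes on the same day drew attention; none of these differences was tested, since each group has 1 library. Junb on day 1 had a log2 ratio to sham of 1.26 in oligodendrocyte-like cells and of -1.59 in microglia-like cells, a difference of 2.85. Among cells with 1500 to 4000 UMIs these ratios were 0.94 and -0.59, neither past 2-fold. Atf3 on day 1 had a log2 ratio of 1.91 in oligodendrocyte-like cells, -1.07 in pericyte-like cells and -1.52 in microglia-like cells. The differences are 2.98 and 3.43. Oligodendrocyte-like cells held 14.79 CPM of Atf3 in sham, and among cells with 1500 to 4000 UMIs the Atf3 ratio was -0.25 in oligodendrocyte-like, 0.01 in pericyte-like and -0.42 in microglia-like cells. The first of these rests on a few sham UMIs.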

How the results depend on the processing

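Of the 32 ratios past 2-fold, 14 stayed past it under every alternative that could be applied, and 410 of 412 recomputed values kept their direction. Both exceptions arose in cells of 1500 to 4000 UMIs, a range chosen after seeing the data, where the log2 ratio of Atf3 on day 1 was 0.01 in pericyte-like and -0.25 in oligodendrocyte-like cells. The oligodendrocyte-like value rests on a few UMIs in 44 sham cells. In that range the number of higher ratios of 30 was 18 in endothelial-like cells (3 in the report), 23 in vascular smooth muscle-like cells (2), 3 in pericyte-like cells (1) and 3 in microglia-like cells (1), while 7 were lower in pericyte-like cells (12). Over all genes there, 0.653% to 2.1%, 4.57% to 6.68%, 1.9% to 4.3% and 16% to 18.7% were higher by day in these 4 classes. In pericyte-like cells 1.88% to 5.32% were lower. The cause was not tested. No share over all genes is given for the other settings, so their counts are not read as results about the 10 genes. With up to 6000 genes per cell, 14 ratios were lower in microglia-like cells (8) and 1 in endothelial-like cells (0). With a mitochondrial limit of 5%, 1 was higher in vascular smooth muscle-like cells (2) and 1 lower in oligodendrocyte-like cells (0). With the mean over cells of each cell's CPM, the higher ratios were 0 in pericyte-like (1) and 2 in microglia-like cells (1). With 20 CPM added, 0 were higher in pericyte-like cells and 3 in oligodendrocyte-like cells (5), and with a minimum of 100 CPM 0 and 2, since these settings weigh on or remove low genes. Other gates, the study's marker genes, totals without mitochondrial and ribosomal genes, median ratio scaling, 1 CPM added and no CPM minimum left every count of a class within 1.5 times. The day 1 ratio of the summed level in endothelial-like cells ranged from 0.677 with up to 6000 genes to 3.11 in cells of 1500 to 4000 UMIs, and was 1.07 as a mean over cells; that of microglia-like cells ranged from 0.195 to 0.494, and its day 7 ratio from 0.769 to 1.16. Thinning to 500 or 2000 UMIs moved the share of cells with at least 3 genes beyond its interval in 39 of 40 values. Counts of the other lists moved by over 1.5 times in 5 of 180 values. No paired analysis was possible because each group has 1 library, and for the same reason no library could be left out. Few sham cells held 1500 to 4000 UMIs in microglia-like (26), oligodendrocyte-like (44) and vascular smooth muscle-like cells (64), which limits the values of that range.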
